A study of Mus musculus with 6 samples.

Results

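The mitosis, spindle and kinetochore genes described here were 60 genes of the G2 and M phases of the cell cycle, picked by symbol from 26431 genes with a value in the tibialis anterior (TA) muscle of mice. All 60 were found, and each was represented by its transcript of highest mean value. They encode the machinery by which a cell that has copied its DNA divides. Cyclin-dependent kinase 1 and its B-type cyclins start mitosis, condensin compacts the chromosomes, the kinetochore attaches each chromosome to spindle microtubules, and the spindle checkpoint holds the cell until all are attached. The anaphase-promoting complex (APC/C) then has securin and cyclin B destroyed, which frees separase to part the sister chromatids, and motor and scaffold proteins cut the cell apart. Resting adult muscle fibres do not divide, whereas injured muscle is known for the proliferation of satellite cell-derived myoblasts, macrophages and other mononuclear cells.

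RNA came from C57BL/6 mice that were 8 to 10 weeks old and labelled female, with 1 library per mouse. The 3 mice of the day 3 group received about 50 μl of 10 μM cardiotoxin from Naja mossambica mossambica, a venom toxin that destroys muscle fibres, in the TA muscle 3 days earlier, and the 3 uninjured mice were untreated. No mouse was given a saline injection in the data used here, so toxin and needle cannot be told apart. Levels are RPKM, the reads of a transcript scaled to its length and to the mapped reads of its library. The mapped reads, worked out from the RPKM values themselves, numbered 34202861 to 36129090 at day 3 and 38737746 to 43062684 in uninjured muscle. Below, values of 3 libraries are in the order of replicates 1, 2 and 3.

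At day 3 the genes rose almost as a block. With limma on log2(RPKM + 0.1), 59 of the 60 were higher at day 3 and 1, Pttg1, was lower, where a call needed a 2-fold change or more and a p below 0.05 after adjustment by the method of Benjamini and Hochberg. Of the 14446 genes tested (mean RPKM of at least 0.5), 60.5% were higher and 7.96% lower. The median log2 fold change of the 60 genes was 5.35, and their values ran from -1.06 to 7.28 with standard errors of 0.0738 to 0.298, against a median of 1.35 over all tested genes. The largest adjusted p among them in limma was 4.85e-06. Their summed level was 1082, 1022 and 1253 RPKM at day 3, against 64.4, 62.4 and 64.8 RPKM in uninjured muscle, of which Pttg1 alone made up 24.6, 24.9 and 24.8. In whole muscle, a change in the number of cells of a type and a change in RNA per cell cannot be told apart, for rises or falls.

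**Figure D1:**
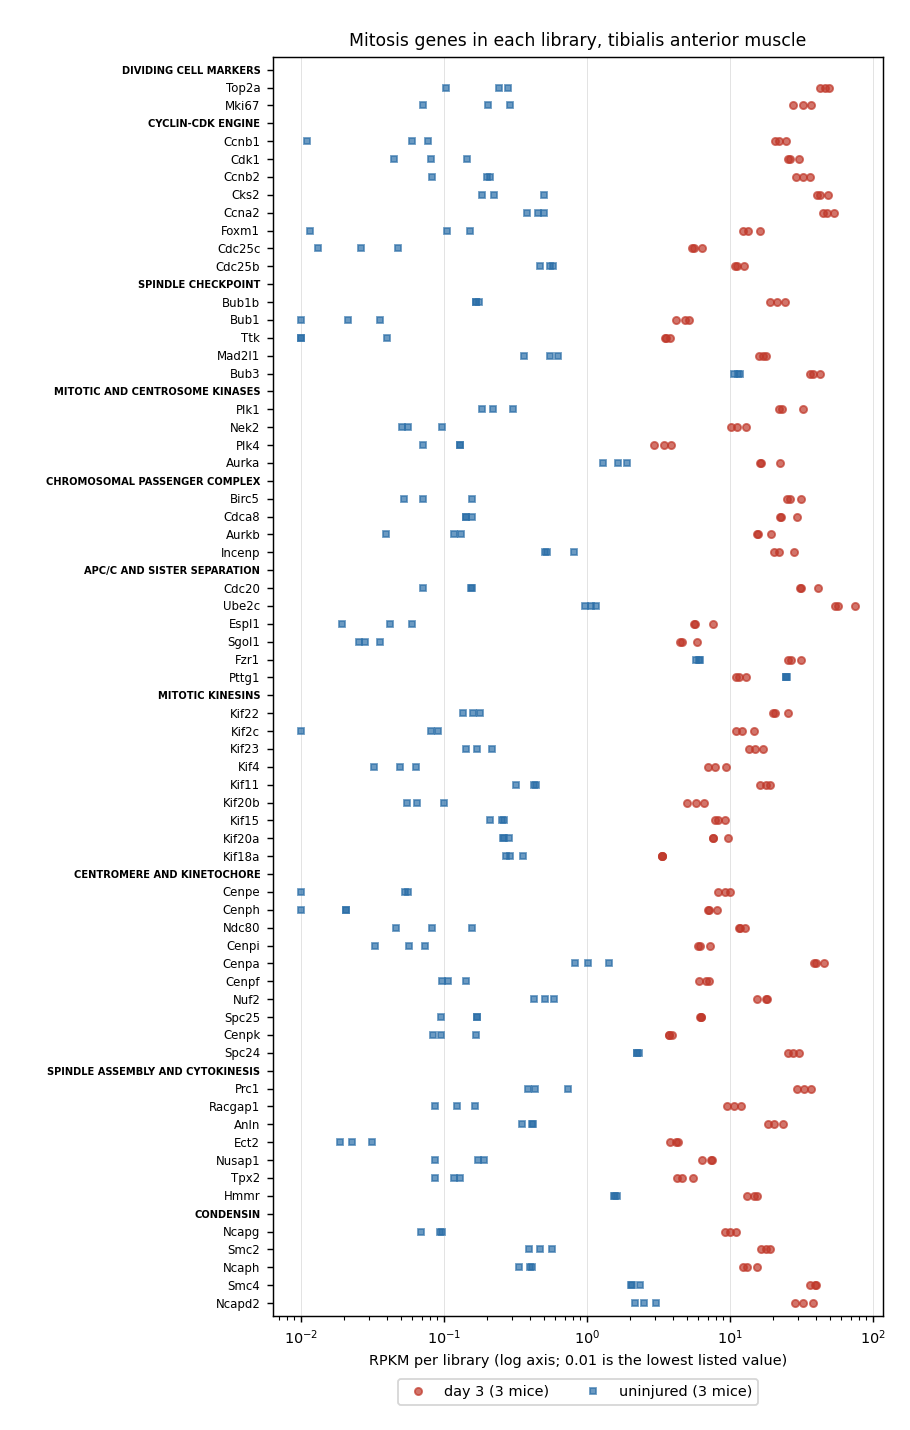
RPKM (log axis) of the 60 mitosis genes in the 3 day 3 libraries (red circles) and the 3 uninjured libraries (blue squares), grouped by role. Every day 3 value lies to the right of every uninjured value for 59 genes, and for Pttg1 to the left; Bub3 and Fzr1 have uninjured values of 5.78 to 11.8 RPKM, nearer to their day 3 values than other genes that rose.

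The 60 genes all passed the filter on low values, but 45 of them had an uninjured mean under 0.5 RPKM and passed through day 3 alone, so that such a gene had to be higher. Without a filter, over 23105 genes, limma still called 59 higher and 1 lower, where 44.1% of all genes were higher and 5.43% lower. Of the 15 genes with an uninjured mean of at least 0.5 RPKM, 14 were higher and 1 was lower, beside 54.1% higher among the 12151 tested genes of that level. The 3 libraries of each group did not overlap for any of the 60 genes, 59 lying above and 1 below. Non-overlap of that kind was common in these libraries, with 78.5% of tested genes wholly above and 14.5% wholly below.

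The promoters of these genes were read next, because G2 and M phase genes are known to carry particular letters near their start sites. The cell cycle genes homology region (CHR) is TTTGAA or, less often, TTTAAA, and the CCAAT box is CCAAT. Both strands were searched, so TTTGAA may appear as TTCAAA and CCAAT as ATTGG, while TTTAAA reads the same on both. Shown are 4 genes that rose by more than 6 on the log2 scale (Cdk1, Ccnb2, Cdc20 and Plk1), followed by the 2 with the smallest rises (Bub3 and Fzr1) and the 1 that fell (Pttg1). Each run covers 150 bases before the RefSeq start site and 30 from it onward, 5′ to 3′ on the strand of the gene in GRCm38.p6. Capitals mark CHR and CCAAT letters.
Cdk1 promoter (chr10:69352883-69353062, minus strand): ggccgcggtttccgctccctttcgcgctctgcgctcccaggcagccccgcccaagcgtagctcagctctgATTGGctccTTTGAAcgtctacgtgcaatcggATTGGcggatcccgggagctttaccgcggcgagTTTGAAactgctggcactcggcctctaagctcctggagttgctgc
Ccnb2 promoter (chr9:70421525-70421704, minus strand): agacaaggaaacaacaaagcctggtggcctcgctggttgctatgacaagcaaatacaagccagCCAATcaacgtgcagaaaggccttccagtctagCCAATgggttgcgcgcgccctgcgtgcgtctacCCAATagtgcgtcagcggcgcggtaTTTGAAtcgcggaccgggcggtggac
Cdc20 promoter (chr4:118437314-118437493, minus strand): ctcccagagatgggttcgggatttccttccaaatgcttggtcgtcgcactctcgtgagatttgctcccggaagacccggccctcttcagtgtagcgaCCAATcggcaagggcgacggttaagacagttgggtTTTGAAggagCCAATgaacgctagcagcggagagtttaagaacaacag
Plk1 promoter (chr7:122159285-122159464, plus strand): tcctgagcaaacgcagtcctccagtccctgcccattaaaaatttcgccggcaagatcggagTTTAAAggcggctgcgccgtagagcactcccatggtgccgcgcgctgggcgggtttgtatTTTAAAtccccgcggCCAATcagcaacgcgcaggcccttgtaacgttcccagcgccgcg
Bub3 promoter, the upstream of 2 start sites (chr7:131560220-131560399, plus strand): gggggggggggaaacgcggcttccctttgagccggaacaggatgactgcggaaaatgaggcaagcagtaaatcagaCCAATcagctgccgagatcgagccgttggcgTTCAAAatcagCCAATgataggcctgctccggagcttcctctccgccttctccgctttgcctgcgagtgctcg
Fzr1 promoter (chr10:81378341-81378520, minus strand): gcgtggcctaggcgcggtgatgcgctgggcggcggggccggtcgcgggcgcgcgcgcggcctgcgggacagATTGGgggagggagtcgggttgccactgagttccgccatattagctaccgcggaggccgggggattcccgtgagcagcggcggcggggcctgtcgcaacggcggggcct
Pttg1 promoter (chr11:43425952-43426131, minus strand): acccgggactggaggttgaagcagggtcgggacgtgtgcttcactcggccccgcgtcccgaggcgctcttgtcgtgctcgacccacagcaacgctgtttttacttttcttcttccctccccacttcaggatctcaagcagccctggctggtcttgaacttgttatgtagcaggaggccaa

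With the start site at 0, the Cdk1 run held TTTGAA at -71 and -15 and ATTGG at -80 and -48. In Ccnb2, CCAAT recurred at -87, -54 and -21, and TTTGAA lay just inside the transcript at 4. Cdc20 held TTTGAA at -18 between CCAAT at -53 and -8, and Plk1 held TTTAAA at -89 and -29 and CCAAT at -14. Bub3 carried the same kinds of letters as these 4 genes, with CCAAT at -74 and -32 and TTCAAA at -43. Fzr1 held only ATTGG at -79, and the Pttg1 run held none of them.

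Over the whole RefSeq windows, 250 bases before the start to 50 after it, 51 of the 60 genes could be matched. CHR letters were found in 36 of the 51 (70.6%), against 30.6% of 27025 genes with a promoter, and CCAAT in 38 (74.5%), against 41.1%. TTTGAA accounted for most of the CHR matches, with 32 genes (62.7%, against 20.2%), while TTTAAA was in 10 (19.6%, against 14.9%). Both kinds of letters stood in the promoters of 29 genes (56.9%, against 12.2%). CHR letters lay within 50 bases of the start in 31 genes (60.8%), against 9.54% of all genes. Other mitosis genes, listed separately, had CHR letters in 57.4% and CCAAT in 63.9% of 61 promoters, whereas DNA replication genes had CCAAT in 61.5% but CHR letters in 26.9% of 26. The rises of the 36 genes with CHR letters had a median of 5.74 on the log2 scale and spanned 1.78 to 7.28, and the 15 without had a median of 4.83 and spanned -1.06 to 6.85, so the ranges overlapped between 1.78 and 6.85. Of the 6 genes with neither kind of letters, Mad2l1, Nuf2, Nusap1 and Ncaph had log2 fold changes of 4.82 to 4.87, Kif18a 3.09 and Pttg1 -1.06. These matches are letters in a window and were given no test.

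**Figure D2:**
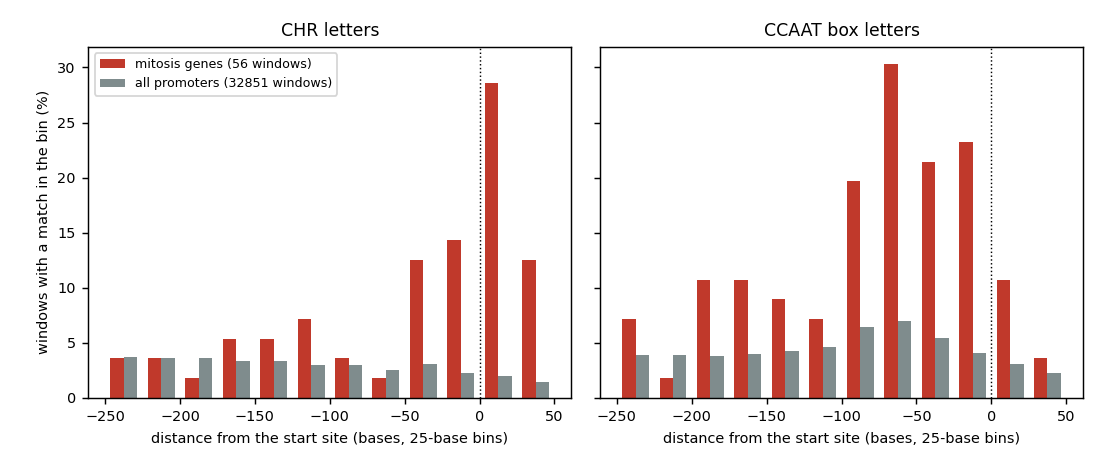
Share (%) of promoter windows with CHR letters (left) or CCAAT letters (right) starting in each bin of 25 bases, by distance from the RefSeq start site, for 56 windows of mitosis genes (red) and all 32851 windows (grey). CHR letters peak just downstream of the start, with 28.6% of mitosis windows against 1.99% of all in the first 25 bases, and CCAAT peaks upstream, with 30.4% against 6.99% between -75 and -50.

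Markers of dividing cells were high at day 3 and near absent in uninjured muscle. Top2a, the topoisomerase that untangles sister DNA, had 46.3, 42.7 and 49.3 RPKM at day 3, against 0.280, 0.103 and 0.242 RPKM in uninjured muscle. Mki67, the source of the Ki-67 proliferation antigen that coats mitotic chromosomes, had 32.5, 27.6 and 37.1 RPKM, against 0.205, 0.0710 and 0.292 RPKM. The uninjured values of both were lowest in replicate 2, and the groups lay far apart. On log2(RPKM + 0.1), Top2a had the largest log2 fold change of the 60 genes, 7.28 (standard error 0.23), and Mki67 rose by 6.88 (standard error 0.29). The first rank depends on the 0.1 added, which shrinks the changes of genes near absent in uninjured muscle. With 0.01 added instead, Ccnb1 (8.79) stood above Top2a (7.83).

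The 8 genes that drive entry into mitosis all rose, with a median log2 fold change of 6.67. Ccnb1, cyclin B1, had 20.8, 21.9 and 24.7 RPKM at day 3, against 0.0602, 0.0110 and 0.0780 RPKM in uninjured muscle. Its catalytic partner Cdk1 had 26.2, 25.4 and 30.2 RPKM, against 0.146, 0.0447 and 0.0812 RPKM. Neither gene had an uninjured library above 0.146 RPKM, and their log2 fold changes were 7.26 (standard error 0.19) and 7.20 (standard error 0.19). Behind the uninjured level of Ccnb1 stood only 14 reads in 3 libraries, against 5511 at day 3, a ratio per mapped read of 450 with an exact 95% interval of 268 to 823 that covers counting error only. Ccnb2, Cks2, the small subunit that binds Cdk1, and Ccna2, cyclin A2, rose by 6.98, 6.85 and 6.48. Foxm1, a transcription factor of G2 and M phase genes, rose by 6.28 to a level of 14.0 ± 2.06 RPKM (SD, n = 3), against 0.0904 ± 0.0722 RPKM (SD, n = 3). The phosphatases that activate Cdk1 reached lower levels than the kinase. Cdc25c rose by 5.52, and Cdc25b, the smallest rise of the group at 4.20 (standard error 0.10), had 11.3, 10.9 and 12.5 RPKM at day 3, against 0.552, 0.473 and 0.580 RPKM.

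The kinases that build the spindle poles differed among themselves. Plk1, which acts at centrosomes, kinetochores and the midbody, had 23.3, 22.2 and 32.4 RPKM at day 3, against 0.221, 0.186 and 0.305 RPKM in uninjured muscle, a log2 fold change of 6.26 (standard error 0.19). Aurka, the Aurora kinase of the spindle poles, had 16.6, 16.2 and 22.5 RPKM, against 1.65, 1.30 and 1.92 RPKM. Its rise of 3.43 (standard error 0.18) was the smallest of the 4, and its uninjured level was above that of Plk1 in every library. Nek2, which separates centrosomes, rose by 6.12, and Plk4, which starts centriole duplication, by 4.08 to 3.45 ± 0.475 RPKM (SD, n = 3), against 0.111 ± 0.0339 RPKM (SD, n = 3). The Plk4 values are those of 1 of 3 transcripts, a non-coding one in RefSeq. The others had day 3 means of 3.31 and 3.45 RPKM, and with transcripts summed Plk4 rose by 4.66.

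Among spindle checkpoint genes, 4 were nearly silent in uninjured muscle and 1 was not. Bub1b (BubR1), which blocks the APC/C activator Cdc20, had 21.4, 18.9 and 24.4 RPKM at day 3, against 0.177, 0.167 and 0.169 RPKM in uninjured muscle. It rose by 6.31 (standard error 0.11). Bub3, its binding partner, had 36.2, 37.8 and 42.8 RPKM at day 3, against 10.7, 11.8 and 11.3 RPKM. The groups did not overlap, but the log2 fold change of 1.78 (standard error 0.08) was the smallest rise of the 60 and close to the median of all tested genes. Bub1, Ttk (Mps1), the kinase that starts checkpoint signalling, and Mad2l1 rose by 5.30, 4.97 and 4.82. With 0.01 added to RPKM in place of 0.1, Bub1 (7.27) and Ttk (7.07) rose more than Bub1b (6.89). Ttk rested on 5 uninjured reads in all and was listed at the lowest value, 0.01 RPKM, in 2 uninjured libraries.

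The chromosomal passenger complex, which corrects faulty attachments and later guides cytokinesis, rose in all 4 subunits. Birc5 (survivin) had 26.3, 24.9 and 31.4 RPKM at day 3, against 0.0713, 0.0523 and 0.159 RPKM in uninjured muscle, a log2 fold change of 7.19 (standard error 0.21). Incenp, the scaffold, had 22.1, 20.4 and 28.3 RPKM, against 0.816, 0.525 and 0.514 RPKM, and rose by 5.06 (standard error 0.19). Cdca8 (borealin) and the kinase Aurkb lay between them at 6.65 and 6.46. That order rests on 1 Birc5 transcript with 11 uninjured reads in all. With transcripts summed, Birc5 rose by 6.23, less than Cdca8 and Aurkb. At day 3 the 4 subunits stood within 2.23-fold of each other, and in uninjured muscle within 6.40-fold, in RPKM summed over transcripts. Birc5 was 1 of 13 genes with several transcripts in the table. Its transcript of 977 nt was 293 times as high at day 3 as in uninjured muscle, and that of 3416 nt was 32.4 times as high, with 9.55, 9.81 and 10.6 RPKM against 0.292, 0.344 and 0.287 RPKM. The sources used here do not say to which transcript a shared read was given, so levels of single transcripts are uncertain.

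The genes of the APC/C and of sister chromatid separation held both the most abundant gene at day 3 and the gene that fell. Cdc20, the activator that the checkpoint restrains, had 31.4, 31.0 and 41.1 RPKM at day 3, against 0.155, 0.0713 and 0.158 RPKM in uninjured muscle. It rose by 7.26 (standard error 0.19). Fzr1 (Cdh1), the activator of late mitosis and G1 that also works in cells that do not divide, had 26.9, 25.4 and 31.3 RPKM, against 6.20, 5.78 and 6.05 RPKM. Its log2 fold change was 2.19 (standard error 0.09). The ratio of Fzr1 to Cdc20 was 0.858, 0.819 and 0.760 at day 3 and 39.9, 81.0 and 38.2 in uninjured muscle, in RPKM summed over transcripts. Under the uninjured ratios lie only 12, 5 and 11 Cdc20 reads. Ube2c, the ubiquitin-conjugating enzyme of the APC/C, was the most abundant of the 60 genes at day 3 with 62.2 ± 11.1 RPKM (SD, n = 3), against 1.07 ± 0.0959 RPKM (SD, n = 3), and rose by 5.72. Espl1, separase, and Sgol1, the shugoshin that shields centromeric cohesin, rose by 5.52 and 5.28.

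Pttg1 encodes securin, the inhibitor and chaperone of separase. It had 11.1, 13.0 and 11.5 RPKM at day 3, against 24.6, 24.9 and 24.8 RPKM in uninjured muscle. Every day 3 library was below every uninjured library, and the uninjured values were nearly equal. The log2 fold change was -1.06 (standard error 0.07, 95% interval -1.23 to -0.88, limma adjusted p 4.85e-06), so part of the interval lay short of the 2-fold limit for a call. In reads, 940 at day 3 stood against 2239 in uninjured muscle, a ratio per mapped read of 0.480 (exact 95% interval 0.444 to 0.518). Both transcripts were lower at day 3, with a ratio of 0.479 for that of 748 nt and 0.542 for that of 1698 nt. Securin ranked first of the 60 genes in uninjured muscle. Its ratio to its target separase (Espl1), in RPKM summed over transcripts, was 2.99, 3.51 and 2.17 at day 3, against 592, 862 and 1832 in uninjured muscle. The uninjured ratios have few separase reads under them, 33 in 3 libraries. The 8 adult fibre markers given further on also fell at day 3. Among the day 3 libraries their sum was highest in replicate 2 and lowest in replicate 3, as was Pttg1 summed over transcripts, with 17.2, 19.9 and 16.6 RPKM, while its transcript of 748 nt alone was lowest in replicate 1. The part of fibre loss in the fall of Pttg1 was not tested.

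**Figure D3:**
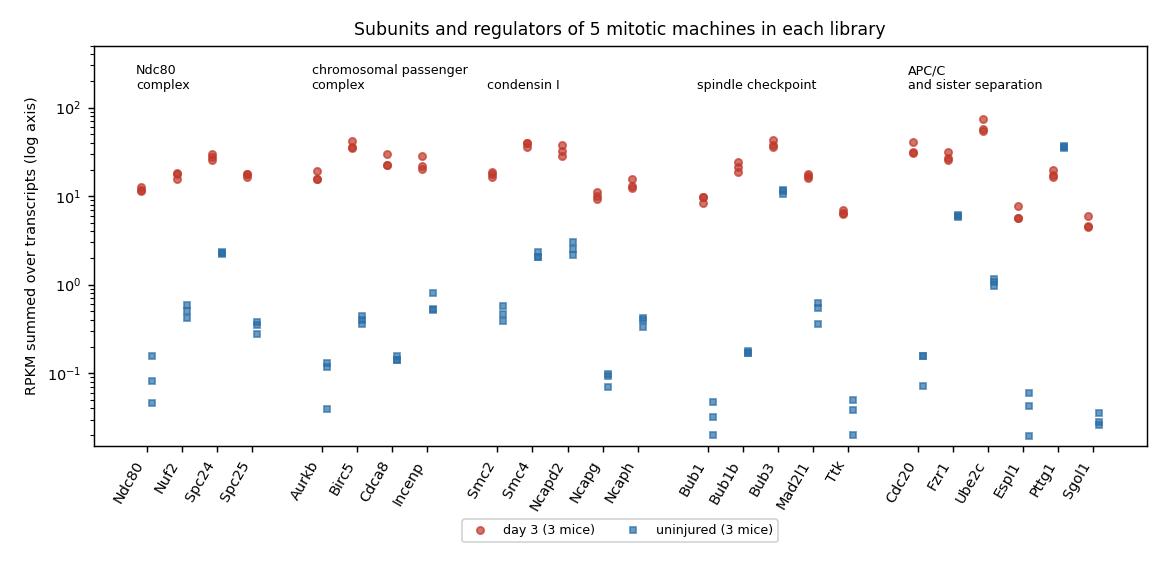
RPKM summed over transcripts (log axis) of the subunits and regulators of 5 mitotic machines in the 3 day 3 libraries (red circles) and the 3 uninjured libraries (blue squares). At day 3 the Ndc80 and chromosomal passenger complexes span 2.32-fold and 2.23-fold, while their uninjured levels span 23.7-fold and 6.40-fold. Their lowest uninjured levels rest on few reads, 26 for Ndc80 and 23 for Aurkb in 3 libraries. Condensin I, the spindle checkpoint and the APC/C group span 3.80-fold, 5.94-fold and 12.5-fold at day 3, and 29.5-fold, 338-fold and 1196-fold in uninjured muscle. The day 3 span of the Ndc80 complex depends on summing the transcripts of Spc25. Pttg1 is the only gene with its blue squares above its red circles.

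The kinetochore genes rose by 3.56 to 6.06. Cenpe, the kinetochore motor that carries chromosomes to the spindle equator, had 9.24, 8.21 and 9.97 RPKM at day 3, against 0.0535, 0.01 and 0.0562 RPKM in uninjured muscle, and rose by 6.06 (standard error 0.17). Spc24, a subunit of the microtubule-binding Ndc80 complex, had 27.8, 25.7 and 30.3 RPKM, against 2.26, 2.31 and 2.24 RPKM. It had the smallest rise of the 10, 3.56 (standard error 0.08), from the highest uninjured level. Its partners Ndc80, Nuf2 and Spc25 rose by 5.99, 4.83 and 4.71. With transcripts summed, the 4 subunits lay within 2.32-fold of each other at day 3 and within 23.7-fold in uninjured muscle. Summed in this way, Spc25 rose by 5.33. The day 3 span depends on that sum. The highest of 3 Spc25 transcripts alone had a day 3 mean of 6.27 RPKM, against 27.9 RPKM for Spc24. How reads shared among transcripts were counted is not known. Cenpa, the histone variant that marks centromeres, reached 41.5 ± 3.83 RPKM (SD, n = 3), against 1.09 ± 0.306 RPKM (SD, n = 3), a rise of 5.15. Of the inner kinetochore genes, Cenph, Cenpi and Cenpk rose by 6.01, 5.42 and 4.20. Cenph had 976 reads at day 3 against 2 in uninjured muscle, a ratio per mapped read of 557 with an exact 95% interval of 154 to 4610, so its size is poorly known. Cenpf, a large protein of the outer kinetochore, rose by 4.98.

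The 9 mitotic kinesins had a median rise of 5.18. Kif22, which pushes chromosome arms outward, had 20.6, 20.0 and 25.4 RPKM at day 3, against 0.179, 0.160 and 0.137 RPKM in uninjured muscle, and rose by 6.41 (standard error 0.12). Kif18a, which damps chromosome movements at the spindle equator, had 3.35, 3.34 and 3.35 RPKM, against 0.288, 0.272 and 0.359 RPKM. It was the least abundant of the 60 genes at day 3 and rose by 3.09 (standard error 0.12). The microtubule depolymerase Kif2c rose by 6.33, Kif23 of the central spindle by 5.79, the chromokinesin Kif4 by 5.78 and the spindle-bipolarity motor Kif11 by 5.18. Kif20b, Kif15 and Kif20a rose by 5.09, 4.63 and 4.50.

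The 7 genes of spindle assembly and cytokinesis rose by 3.11 to 5.76. Prc1, which bundles antiparallel microtubules, had 32.7, 29.3 and 36.6 RPKM at day 3, against 0.740, 0.390 and 0.437 RPKM in uninjured muscle, and rose by 5.76 (standard error 0.21). Hmmr, a spindle pole protein and hyaluronan receptor, had 14.6, 13.3 and 15.5 RPKM, against 1.55, 1.63 and 1.57 RPKM, and rose by 3.11 (standard error 0.08). Racgap1 and Ect2, which switch on RhoA at the division plane, rose by 5.60 and 5.08, and Anln, a scaffold of the contractile ring, by 5.40. The microtubule-associated Nusap1 and Tpx2 rose by 4.87 and 4.53. With transcripts summed, Ect2 and Racgap1 rose by 6.23 and 6.06, above Prc1 at 5.76, and Nusap1 and Tpx2 by 5.25 each.

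The 5 condensin genes rose by 3.64 to 5.77. Ncapg had 10.0, 9.31 and 11.1 RPKM at day 3, against 0.0942, 0.0691 and 0.0977 RPKM in uninjured muscle, and rose by 5.77 (standard error 0.12). Ncapd2 had 32.5, 28.7 and 38.1 RPKM, against 2.51, 3.03 and 2.18 RPKM, and rose by 3.64 (standard error 0.15). Both are non-ATPase subunits of condensin I, and the gene of higher uninjured level had the smaller rise. The ATPase subunits Smc2 and Smc4, shared with condensin II, rose by 4.97 and 4.10, and Ncaph by 4.82.

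**Figure D4:**
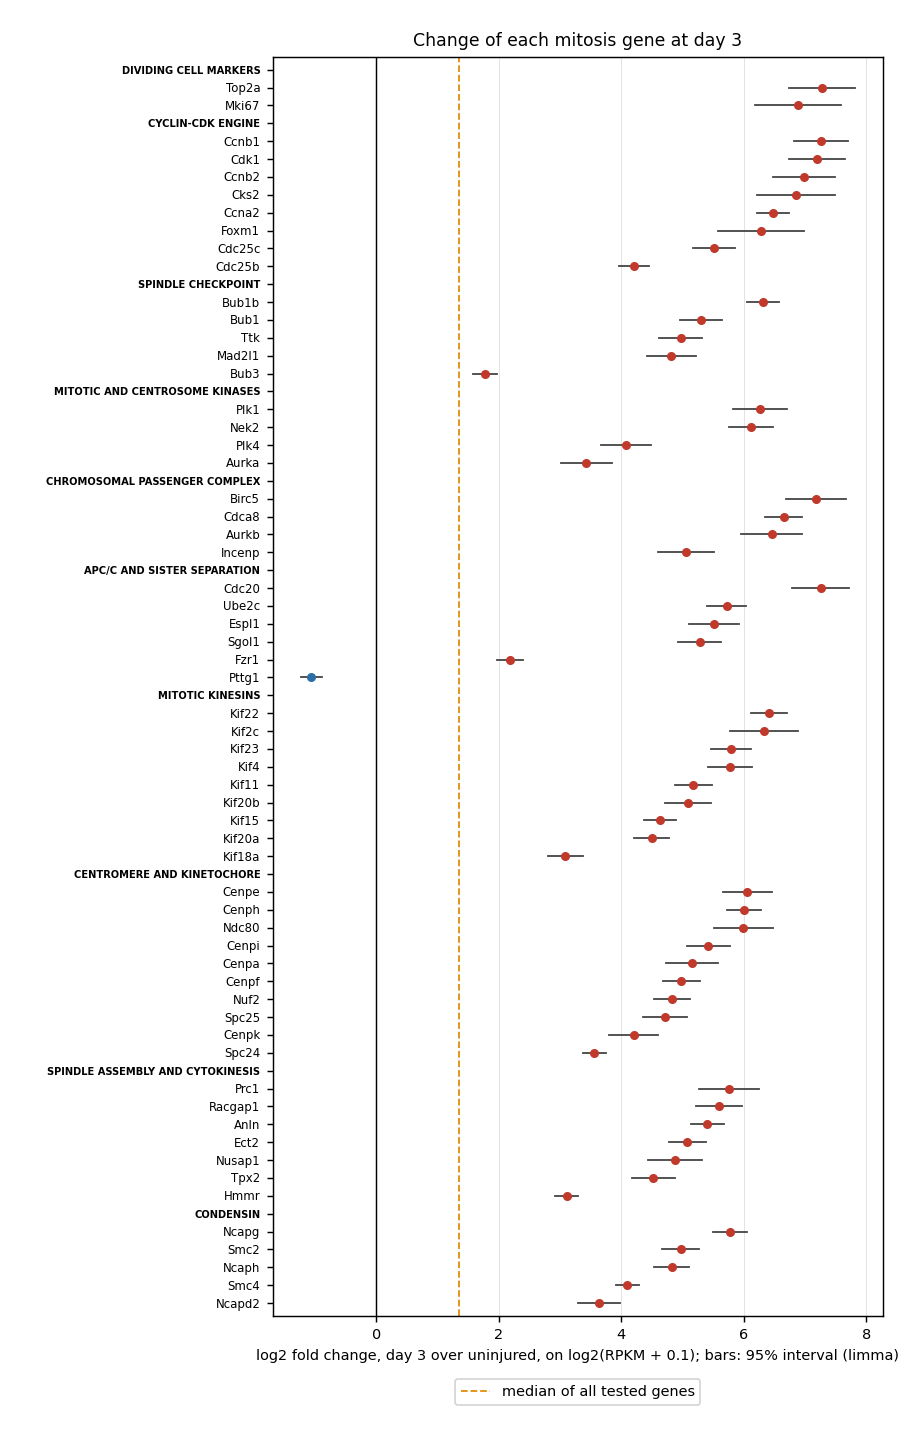
Log2 fold change, day 3 over uninjured, of each mitosis gene on log2(RPKM + 0.1), with 95% intervals from limma (bars) and the median of all tested genes, 1.35 (dashed line). Top2a has the largest value on this scale, 7.28. Bub3 and Fzr1 are the rises nearest the dashed line, at 1.78 and 2.19, and Pttg1 is at -1.06.

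Mean levels of the 60 genes covered a narrower range at day 3 than in uninjured muscle. Means ran from 3.34 to 62.2 RPKM at day 3, an 18.6-fold span, and from 0.0172 to 24.8 RPKM in uninjured muscle, a 1443-fold span. The ends of the uninjured span were set by Cenph, which rested on 2 uninjured reads, and by Pttg1, the gene that fell. In uninjured muscle 10 genes exceeded 1 RPKM. Pttg1, Bub3 and Fzr1 led them at 24.8 ± 0.134, 11.2 ± 0.566 and 6.01 ± 0.216 RPKM (SD, n = 3 each), and no library of one reached the range of the next. Ncapd2, Spc24 and Smc4 followed at 2.57 ± 0.428, 2.27 ± 0.0386 and 2.15 ± 0.178 RPKM (SD, n = 3 each), with overlapping ranges, then Aurka, Hmmr, Cenpa and Ube2c. The log2 fold changes of these 10 ran from -1.06 to 5.72 and those of the other 50 from 3.09 to 7.28. The uninjured level is itself the denominator of the fold change, so this difference carries no test.

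Day 3 replicate 3 was the highest of the 3 day 3 libraries for 55 of the 60 genes, and replicate 2 the lowest for 50. Such ranks were not counted over all tested genes, here or for the uninjured replicates below. The 60 genes stood a median of 0.23 on the log2 scale above the mean of replicates 1 and 2 in replicate 3, against 0.053 for all tested genes. Coefficients of variation at day 3 had a median of 10.6%. Replicate 3 also had the highest sum of 8 macrophage markers, 4837 RPKM against 3412 and 3860 in replicates 1 and 2, and the lowest sum of 8 adult fibre markers, 1865 RPKM against 5965 and 8294. Its sum of 7 myoblast markers, 851 RPKM, lay between 1006 and 710 in replicates 1 and 2. Of these sums Myog alone held 534, 350 and 421 RPKM in replicates 1, 2 and 3. In uninjured muscle, replicate 2 was lowest for 39 of the 60 genes and for the macrophage sum. These values were set side by side, and their part in the spread of the mitosis genes was not tested.

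Cell type markers moved strongly in the comparison. All 8 macrophage markers were higher at day 3, with sums of 3412 to 4837 RPKM against 25.3 to 38.5 RPKM in uninjured muscle, as were all 7 myoblast markers, at 710 to 1006 RPKM against 38.7 to 44.5 RPKM. Day 3 means of the myoblast markers ran from 4.74 (Myf5) and 5.05 (Pax7) to 153 (Myod1) and 435 RPKM (Myog). Fibroblast markers were higher in 5 of 6, at 1652 to 1830 RPKM against 159 to 239 RPKM. Macrophage, myoblast and fibroblast markers thus moved the same way as the mitosis genes, as did part of the lymphocyte and neutrophil markers below. So did 60.5% of all tested genes, or 44.1% of genes without the filter on low values. The 6 endothelial markers had log2 fold changes of -0.59 to 0.69, short of 2-fold, and sums of 90.2 to 95.9 RPKM against 75.6 to 86.0 RPKM. In summed RPKM, markers of other blood cells stayed low beside those of macrophages, of which Lyz2 alone averaged 2911 RPKM at day 3. Lymphocyte markers summed to 4.95 to 7.33 RPKM against 0.374 to 0.735 RPKM, and 5 of 8 were higher without the filter on low values. Neutrophil markers summed to 18.2 to 44.3 RPKM against 3.07 to 6.36 RPKM, with 4 of 7 higher. Csf3r, S100a8, S100a9 and Cxcr2 rose by 4.37, 3.42, 2.91 and 1.46, while Ly6g was at the lowest listed value in all 6 libraries. Erythroid precursor markers summed to 1.37 to 2.41 RPKM against 0.684 to 2.31 RPKM, with 1 of 5 higher. All 8 adult fibre markers were lower, at 1865 to 8294 RPKM against 44216 to 47870 RPKM, so the labelled tissue showed its markers in every library. Which of these cells held the mitosis transcripts cannot be told from whole muscle, and the part of cell make-up in the rises was not tested.

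Other genes of the same processes were counted from lists that did not include the 60, and are to be read beside the 60.5% of all tested genes that were higher. Of 77 further mitosis genes, 76 were higher at day 3 in limma, with a median log2 fold change of 4.29. The kinase gene Pbk (6.76) and the spindle or cell cycle genes Ckap2l (6.42) and Cdca3 (6.38) rose most. Ncaph2 of condensin II (1.20) and Haus1 of the augmin complex (1.29) rose least, and the γ-tubulin gene Tubg1 was at 0.86 with 18.8, 18.3 and 21.5 RPKM at day 3, against 10.8, 11.3 and 10.0 RPKM. All 34 DNA replication genes were higher, with a median of 3.56, led by Rrm2, a subunit of ribonucleotide reductase, at 7.02. Core subunits of the APC/C and cohesin had smaller changes. Of 12 core subunits of the APC/C, 9 were higher, with a median of 1.55, while Anapc5, Anapc13 and Cdc26 had log2 fold changes of -0.57, -0.26 and 0.98. Of 10 cohesin genes, which hold sister chromatids together and also shape interphase chromosomes, 7 were higher, with a median of 1.41. The shares and medians of these last 2 lists were near those of all tested genes, whose median was 1.35.

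The scaling of the libraries shifted every gene, and most genes were higher at day 3 per mapped read. Spike-in RNAs (ERCC) held 1.44 to 1.64% of reads at day 3 and 1.06 to 1.20% in uninjured muscle, and mitochondrial sequences 4.77 to 6.62% against 22.1 to 24.7%. After scaling to the spike-ins, 59 of the 60 genes were higher and 1 lower, beside 48.3% and 11% of all tested genes. Median-of-ratios scaling, which brought the median of all genes to 0.06, left 57 higher and 1 lower, beside 26.3% and 22.5%. Quantile normalization, with a median of all genes of -0.07, left 58 higher and 1 lower, beside 24% and 24.7%. Scaling to ribosomal protein genes, with a median of all genes of -0.69, left 57 higher and 1 lower, beside 16.3% and 40.7%. The members' own medians in these 4 fits were 5.04, 4.44, 3.62 and 3.78, which lay 3.69 to 4.47 above the median of all tested genes, and Pttg1 was the only one of the 60 at or below that median in every fit. Bub3 lost its call under the last 3 scalings, with 0.45, 0.78 and -0.33, and Fzr1 under median-of-ratios and ribosomal protein scaling, with 0.86 and 0.08, so whether Bub3 rose depends on the scaling. Pttg1 was lower in each, at -1.48, -2.39, -2.15 and -3.17, but all 4 scalings lower day 3 values relative to uninjured ones. The lists beside them depended on the scaling to different degrees. Of the 77 other mitosis genes 71, 66, 64 and 55 were higher in these 4 fits, and of the 34 DNA replication genes 33, 29, 30 and 26. The APC/C core had medians of 1.13, 0.22, 0.33 and -0.56 and cohesin of 1.0, 0.10, 0.03 and -0.67, so that the direction of those lists turned with the scaling.

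**Figure D5:**
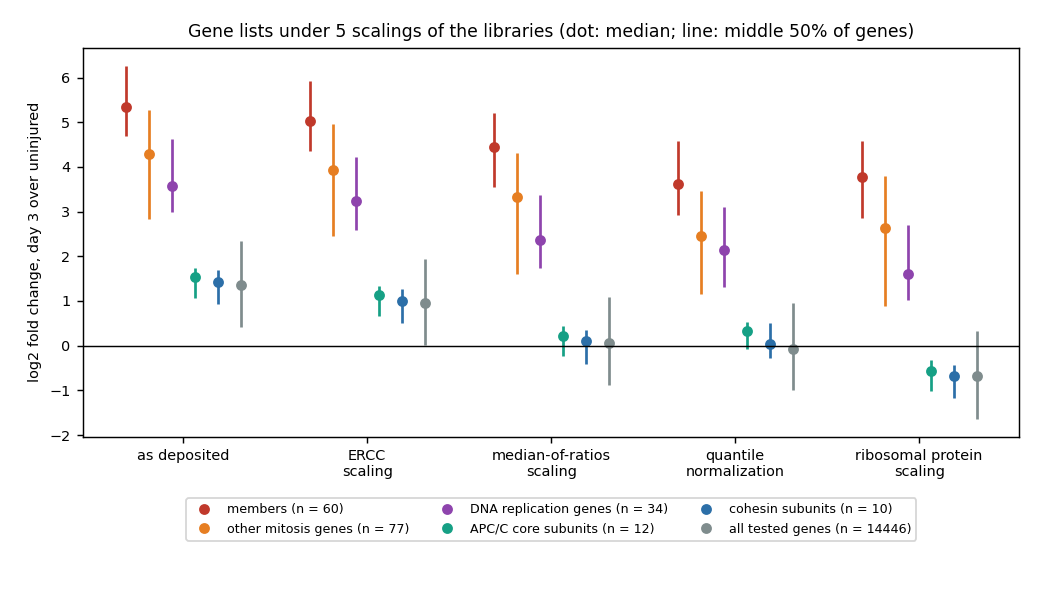
Log2 fold change, day 3 over uninjured, under 5 scalings of the libraries, for the 60 mitosis genes, 77 other mitosis genes, 34 DNA replication genes, 12 APC/C core subunits, 10 cohesin subunits and all 14446 tested genes (dots are medians, lines the middle 50% of genes). The mitosis genes keep a median of 3.62 or more under each scaling, while the APC/C core and cohesin medians follow that of all genes.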

How the data were processed

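Total RNA (1 μg per library) from TA muscle was sequenced as single reads of 50 nt. Per the labels and the study's methods, the authors used BWA to align reads to mouse RefSeq transcripts, and what they deposited is RPKM, without pooling of replicates, for 34302 sequences in each of 6 libraries. Their processing notes also list SAMtools 0.1.19 and CASAVA 1.4. The sources used here do not say where reads matching several transcripts were counted, so genes with near-identical copies are uncertain. No value is under 0.01. The mapped reads of a library were worked out from its values above 0.01. The smallest product of RPKM and transcript length was taken as 1 read. On that basis all values above 0.01 were whole reads within 0.01 read. At 0.01 no read was assumed, but in a transcript longer than 2322 to 2924 nt, depending on the library, it may hide 1 or more, up to 3 in Cenpe. Spike-ins and other sequences that are no gene (96 in all) stayed out of the tests.

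For each of 26431 genes the transcript of highest mean RPKM was used. limma 3.58.1 in R 4.3.3 (lmFit, eBayes with trend, two-sided) was run on log2(RPKM + 0.1) wherever the mean RPKM reached 0.5, with Benjamini-Hochberg adjustment over all tested genes. Fold changes on this scale understate those of low genes. The fit was tested on simulated data. Calls needed an adjusted p under 0.05 and at least 2-fold. Per the study's methods replicates are separate mice. The replicate numbers were not treated as pairs: they are different mice, and the deviations of libraries with the same number correlated at -0.0588, 0.0918 and 0.0178. Tables were handled in pandas 2.3.3 and NumPy 2.4.6 under Python 3.11.15, intervals came from SciPy 1.17.1 and plots from matplotlib 3.10.9. Exact 95% intervals of read ratios cover counting error only.

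The members and all lists were chosen with earlier results of these data known, so counts and medians of lists are descriptions. Values of every library are given for the largest and smallest change in each role group and for Mki67, Top2a, Cdk1 and Ccnb1, and of the other lists up to 3 largest and 3 smallest changes are named. Promoters came from a RefSeq table on GRCm38.p6, matched by gene symbol, with 1 gene (Sgol1) matched by transcript accession. Alternatives varied the pseudocount, the filter, the scaling, limma's options, the replicate block, the transcript and the libraries used.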

Additional observations from a re-analysis of the deposited data

How the results depend on the processing

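Under the alternatives tried, the 60 mitosis genes kept 57 to 59 higher and 1 lower, except that with a mean RPKM of at least 2 only 56 were tested, of which 55 were higher and 1 lower. Their median log2 fold change, 5.35, was 6.35 with a pseudocount of 0.01, 3.39 with a pseudocount of 1 and 6.40 with voom on the recovered reads, the median uninjured mean of these genes being 0.162 RPKM. It was 5.04 after ERCC, 4.44 after median-of-ratios, 3.62 after quantile and 3.78 after ribosomal protein scaling. Over all tested genes, 8740 higher and 1150 lower became 3802 and 3254 (median-of-ratios), 3460 and 3561 (quantile) or 2348 and 5881 (ribosomal protein). With the last, 1 of the 77 other mitosis genes, Tubg1, was lower, and Bub3 turned to -0.33. Single-gene calls were otherwise lost 4 times, all by Bub3 and Fzr1 under a scaling. Pttg1 stayed lower throughout, but reached only -1.0 with a pseudocount of 1 and with transcripts summed, at the 2-fold limit. Leaving out each library in turn gave medians of 5.27 to 5.41, Pttg1 values of -1.12 to -1.01, and 8694 to 8789 higher and 1058 to 1199 lower genes. The replicate block gave 8743 higher and 1149 lower genes and changed no call among the 60. Depth limits the 9 genes with fewer than 20 uninjured reads in all, among them Ccnb1, Cenph and Ttk, whose fold changes are known only to within wide counting intervals, and 5 genes had a library at the lowest listed value.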
